A study of Mus musculus with 96 samples.

Results

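The semaphorins, plexins and neuropilins were followed through chromatin immunoprecipitation followed by sequencing (ChIP-seq) of mouse hippocampal nuclei. The members were 31 genes, namely 20 semaphorins, 9 plexins and 2 neuropilins, and every peak whose annotated gene symbol was a member was taken from each of 6 tables, 1 for each antibody in each nuclear fraction. This gave 51 of the 22815 peaks, carried by 26 of the 31 genes. Chromatin was precipitated for H3K4me3, a histone mark of active promoters, for H3K27me3, a mark of repressed genes, or for Suz12, which belongs to the Polycomb complex that writes H3K27me3. Flow cytometry for the neuronal marker NeuN had separated neuronal (NeuN+) from non-neuronal (NeuN-) nuclei. The animals were male C57BL/6N mice of 6 months of age. They were either WT, lacked one DNA glycosylase (Mutyh-/- or Ogg1-/-), or lacked both (DKO, Ogg1-/- x Mutyh-/-). Both enzymes act in base excision repair of oxidative DNA damage. The labels name no tissue-restricted deletion, so an effect within a fraction cannot be told apart from an effect of the loss elsewhere. Hippocampi of several animals of a genotype were pooled for sorting, and each genotype had 3 replicates per table, that is 72 libraries.

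Semaphorins are secreted or membrane-bound proteins that steer growing axons, mostly by repulsion, and that also shape synapses in the adult brain. Plexins are their receptors and signal to the cytoskeleton through a GTPase-activating domain inside the cell. Most secreted class 3 semaphorins do not bind plexins directly and use neuropilins as co-receptors, whereas the membrane-bound classes bind plexins themselves. In the hippocampus the family is known for guiding mossy fibres and for pruning and placing synapses.

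The sequences below, read from the GRCm38 genome, show DNA at or near H3K4me3 windows or starts of members named in the results. No result was tested against these sequences. They are printed 5′ to 3′ on the strand of the gene, in lower case with each CG dinucleotide (CpG) in capitals. CG reads the same on both strands. Sema7a carried the member window with the highest WT signal (chr9:57940548-57940847, plus strand, intronic).
Sema7a: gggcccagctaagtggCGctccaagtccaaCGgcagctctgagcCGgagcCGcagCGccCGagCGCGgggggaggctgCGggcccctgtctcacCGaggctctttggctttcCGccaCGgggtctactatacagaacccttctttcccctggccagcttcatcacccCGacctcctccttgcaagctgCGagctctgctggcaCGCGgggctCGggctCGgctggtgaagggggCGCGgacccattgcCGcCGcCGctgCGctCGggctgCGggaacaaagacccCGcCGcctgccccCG
Sema3a and Sema5a carried the H3K4me3 windows that met the criteria for a difference from WT. The Sema3a stretch lay just before the annotated exon at its window and outside that window (chr5:13399136-13399185, plus strand), and the Sema5a stretch lay inside its window (chr15:32245609-32245748, plus strand, intronic).
Sema3a: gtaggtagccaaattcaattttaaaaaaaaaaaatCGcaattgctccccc
Sema5a: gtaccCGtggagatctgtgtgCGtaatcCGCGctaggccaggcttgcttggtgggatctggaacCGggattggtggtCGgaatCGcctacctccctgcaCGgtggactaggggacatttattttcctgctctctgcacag
The neuropilins are shown because their consensus windows of H3K4me3 were not the same in both fractions. Nrp1 had a window in NeuN- alone (chr8:128357971-128358270, plus strand, upstream of the annotated start). Nrp2 had a window downstream of its start in NeuN+ (chr1:62705106-62705405, plus strand) and a window at its start in NeuN-. The stretch shown for the latter ends at the annotated exon (chr1:62703035-62703284, plus strand), and 61 of its 250 bases lie in the window, the others upstream of it.
Nrp1, NeuN- window: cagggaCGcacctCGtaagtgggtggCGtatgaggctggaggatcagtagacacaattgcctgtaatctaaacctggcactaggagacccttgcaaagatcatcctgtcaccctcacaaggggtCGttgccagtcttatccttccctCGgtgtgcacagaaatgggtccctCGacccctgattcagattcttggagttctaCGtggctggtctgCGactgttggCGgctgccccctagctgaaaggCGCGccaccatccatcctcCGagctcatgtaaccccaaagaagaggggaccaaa
Nrp2, NeuN+ window: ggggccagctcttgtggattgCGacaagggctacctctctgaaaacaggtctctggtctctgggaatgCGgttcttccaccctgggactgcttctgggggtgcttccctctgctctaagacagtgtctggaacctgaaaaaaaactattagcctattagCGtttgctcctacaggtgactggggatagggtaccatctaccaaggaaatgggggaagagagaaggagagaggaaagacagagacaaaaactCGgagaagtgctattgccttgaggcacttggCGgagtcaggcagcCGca
Nrp2, upstream of the start and into the NeuN- window: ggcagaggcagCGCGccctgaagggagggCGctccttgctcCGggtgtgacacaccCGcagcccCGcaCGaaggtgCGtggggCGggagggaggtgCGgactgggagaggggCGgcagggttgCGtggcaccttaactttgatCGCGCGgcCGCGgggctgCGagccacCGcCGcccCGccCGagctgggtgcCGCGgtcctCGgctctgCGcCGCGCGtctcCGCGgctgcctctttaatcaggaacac
Sema3g and Sema4a are shown as promoters of members without a peak in any table, from RefSeq (GRCm38.p6; Sema3g chr14:31217623-31217859, plus strand; Sema4a chr3:88461183-88461432, minus strand). The Sema7a stretch held 29 CpG. Over their whole width the Nrp2 windows held 43 CpG in NeuN- and 10 in NeuN+. The Sema3g stretch held 8 and the Sema4a stretch 2, where the Sema4a stretch comes from the RefSeq entry with the fewest CpG and another entry of that gene held 14 CpG.
Sema3g: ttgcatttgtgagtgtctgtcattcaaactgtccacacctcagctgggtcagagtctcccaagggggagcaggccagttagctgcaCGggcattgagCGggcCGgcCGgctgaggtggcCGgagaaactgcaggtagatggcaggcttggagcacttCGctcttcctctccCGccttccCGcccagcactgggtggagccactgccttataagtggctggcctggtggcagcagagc
Sema4a: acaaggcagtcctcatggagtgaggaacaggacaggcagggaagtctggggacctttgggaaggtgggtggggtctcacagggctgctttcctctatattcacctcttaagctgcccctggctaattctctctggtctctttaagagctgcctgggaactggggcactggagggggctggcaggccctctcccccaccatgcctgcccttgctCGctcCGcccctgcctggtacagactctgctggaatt

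Values are normalised reads, that is the reads in a 401 bp consensus window divided by a factor for each library. All 51 member windows were 401 bp wide. The reads of a library inside all windows ranged from 96023 to 548706 for H3K4me3 in NeuN+ and from 39320 to 120004 in NeuN-. They ranged from 23794 to 52344 for H3K27me3 in NeuN+, from 19132 to 78250 for H3K27me3 in NeuN-, from 6652 to 33035 for Suz12 in NeuN+ and from 11887 to 66148 for Suz12 in NeuN-. The member windows held a median of 21 reads per library for H3K4me3 in NeuN+ (0 to 73), 8 in NeuN- (0 to 34) and 6 for H3K27me3 in NeuN+ (0 to 18). A library without a read occurred in 3 of 360 values, 12 of 168 values and 9 of 60 values, respectively. At such counts a window without a consensus peak cannot be read as a promoter without the mark. The fraction labels were checked with promoter windows of cell type markers. In NeuN+, 11 of 12 neuronal markers had an H3K4me3 promoter window, as did 2 of 6 astrocyte markers (Slc1a3, Slc1a2), 1 of 8 oligodendrocyte lineage markers (Mbp), 0 of 6 microglial and 0 of 4 endothelial markers. In NeuN-, 0 of 12 neuronal markers had one, while among glial and vascular markers only Slc1a2 and Olig1 did. The NeuN- fraction is a mixture of glia and other cells, and the defining microglial and endothelial markers had no H3K4me3 promoter window there.

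Most genes of the family had an H3K4me3 promoter window in neuronal nuclei, that is a window that the authors' annotation places in a promoter. In NeuN+, 25 of the 31 genes had one. So did 35 of 41 genes of other guidance families and 24 of 30 signalling partners, both described below. In NeuN- 12 genes of the family had one, of a table that held 3270 windows against 12628 in NeuN+. Promoter windows in both fractions were found for 11 genes, in NeuN+ alone for 14 and in NeuN- alone for 1, Nrp1. Of the 30 H3K4me3 member windows in NeuN+, 12 (40.0%) overlapped a window in NeuN-, against 23.8% of all NeuN+ windows. Of the 14 in NeuN-, 12 (85.7%) overlapped one in NeuN+, against 91.7% of all. These shares are a description, since the number of windows called in a table moves with its depth. Promoter windows made up 28 of 30 member windows in NeuN+ (all windows 93.2%) and 13 of 14 in NeuN- (all windows 93.4%).

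**Figure D1:**
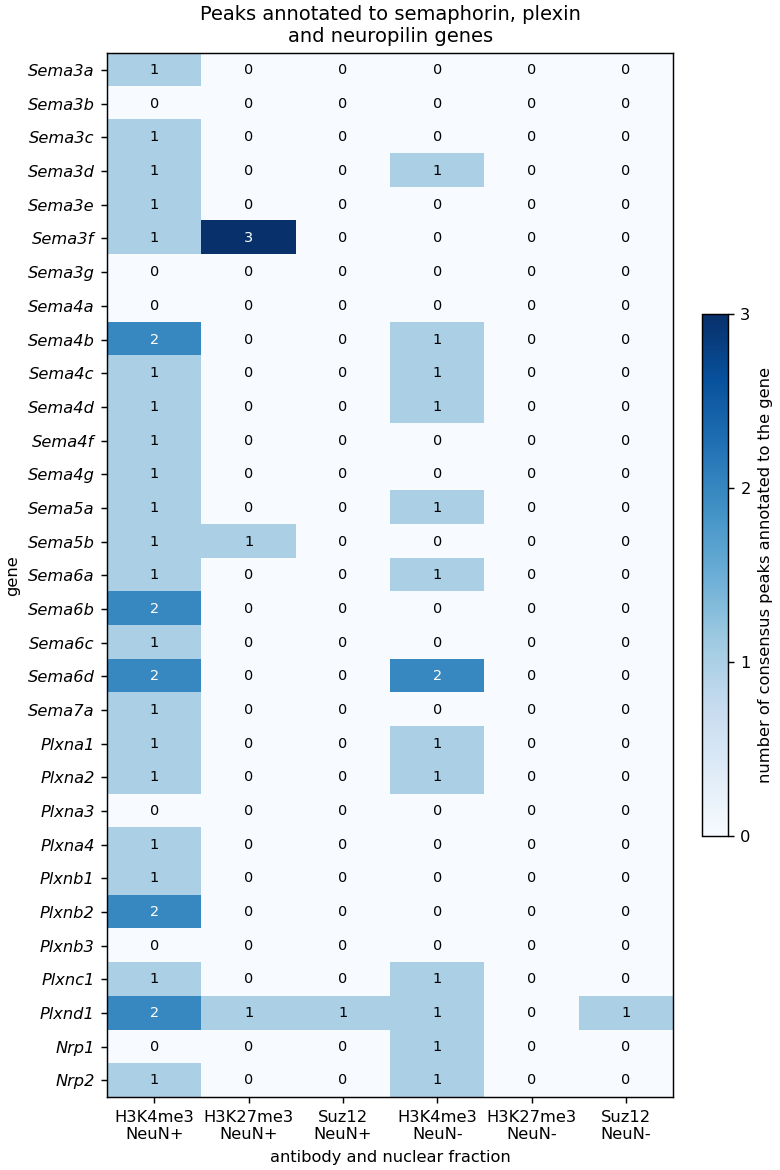
Number of consensus peaks annotated to each of the 31 genes (rows) in each of the 6 tables of an antibody and a nuclear fraction (columns), with the count also given by colour. H3K4me3 in NeuN+ covers 25 genes, H3K27me3 in NeuN- covers none, and Plxnd1 has peaks in 5 tables.

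Among the secreted class 3 semaphorins, most of which use neuropilins as co-receptors, 5 of 7 genes had an H3K4me3 promoter window in NeuN+ (Sema3a, Sema3c, Sema3d, Sema3e and Sema3f). In NeuN- only Sema3d had one. Sema3b and Sema3g had no peak in any table. Among the transmembrane class 4 semaphorins, 5 of 6 genes had a promoter window in NeuN+, and Sema4b, Sema4c and Sema4d also had one in NeuN-. Sema4a, known best from immune cells and the retina, had no peak. Both class 5 genes and all 4 class 6 genes had a promoter window in NeuN+, and of these Sema5a, Sema6a and Sema6d had one in NeuN-. Sema7a, the single class 7 gene and anchored to the membrane by a lipid, had one in NeuN+ alone.

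Of the receptors, Plxna1, Plxna2 and Plxna4 had a promoter window in NeuN+, and Plxna1 and Plxna2 also in NeuN-. Plexin A proteins form receptors with neuropilins for class 3 semaphorins and bind class 6 semaphorins without them. Plxnb1 and Plxnb2, receptors for class 4 semaphorins, had promoter windows in NeuN+ alone, and Plxnb2 had a further intronic window 7143 bp away. Plxnc1, the receptor of Sema7a, had promoter windows in both fractions. Plxnd1, a receptor for Sema3e that is well known from blood vessels, had a promoter window in NeuN+ alone (chr6:115994159-115994559). Plxna3 and Plxnb3 had no peak.

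The consensus windows of the neuropilins differed from each other and were not the same in both fractions. Whether the mark itself differed between the fractions was not tested. Nrp1, the co-receptor for Sema3a, had 1 peak in all, in H3K4me3 of NeuN- at chr8:128357971-128358371. That window lay 233 bp before the annotated Nrp1 start and overlapped the start of A930035F09Rik, a long non-coding RNA on the opposite strand (RefSeq, chr8:128204713-128358237), so the reads cannot be assigned to one of the transcripts. Its normalised reads in the WT libraries 1, 2 and 3 were 1.38, 4.73 and 5.91. Mutyh-/- gave 9.51, 11.2 and 0, Ogg1-/- 3.96, 0.80 and 0, and DKO 6.50, 11.4 and 0. Each knockout group reached 0 in 1 library, and all 3 overlapped WT. Nrp2, the co-receptor for Sema3c and Sema3f, had a window at its annotated start in NeuN- (chr1:62703224-62703624). In NeuN+ its window lay 1404 bp into the gene (chr1:62705106-62705506), 1882 bp from the other. Their WT signals were 13.8, 2.36 and 3.55 in NeuN- and 19.3, 8.78 and 18.3 in NeuN+. The NeuN- values were spread over a wider fold range than the NeuN+ values. Levels were not compared between the fractions because each table had been normalised on its own.

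Several members had more than 1 start with the mark. Sema6d, a class 6 semaphorin that binds Plxna1, had H3K4me3 windows at starts 519899 bp apart in NeuN+, and both were also present in NeuN-. In NeuN+ the downstream window was the higher one in WT, with 59.2, 30.2 and 36.6 normalised reads against 46.3, 25.4 and 16.2 upstream. In NeuN- the order of the means was the opposite, with 5.53, 8.67 and 4.73 downstream and 13.8, 18.1 and 7.09 upstream. The downstream window was higher in 3 of 3 WT libraries of NeuN+ and lower in 3 of 3 of NeuN-, and this contrast was not tested. The WT order in NeuN- did not hold in the knockouts. Ogg1-/- had 13.9, 7.98 and 8.52 downstream and 6.93, 5.59 and 7.10 upstream. Mutyh-/- had 10.5, 6.91 and 6.50 downstream and 12.4, 5.19 and 3.25 upstream. DKO had 31.6, 4.29 and 4.47 downstream and 16.7, 3.57 and 5.59 upstream. In NeuN+ the windows were level in Mutyh-/- library 1 (25.1 each) and library 2 (30.3 each), and DKO library 3 had 28.8 downstream and 47.8 upstream. In every other knockout library of NeuN+ the downstream window was higher. Sema4b had windows 11635 bp apart in NeuN+, both at annotated starts, with WT means of 18.8 ± 6.16 and 18.6 ± 4.30 (SD, n = 3), and only the downstream one overlapped a window in NeuN-.

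H3K4me3 in WT NeuN+ spanned the whole range of the table. Sema7a was the highest member promoter window with 61.7, 29.3 and 40.9 normalised reads (44.0 ± 16.5, SD, n = 3), above 99.5% of all windows. The downstream Sema6d window followed with 42.0 ± 15.2, above 98.9%. Plxna2, which binds Sema6a among others, had 39.9, 8.78 and 61.4 (36.7 ± 26.4). The SDs of these windows were larger than the gaps between their means, so their order is not resolved. The lowest promoter windows were Sema5a (19.3, 4.88 and 12.9), Sema3e (11.6, 3.90 and 20.5) and Sema6a (5.15, 9.76 and 9.69). Sema6a, at 8.20 ± 2.64, lay above 3.7% of all windows. All 3 Sema7a libraries lay above all 3 Sema6a libraries, whereas Sema5a and Sema3e did not separate from Sema6a. In every WT library the median over the 28 member promoter windows was below that over all promoter windows, at 0.778 to 0.952 of it. This ratio was 1.00 to 1.04 in Mutyh-/-, 1.00 to 1.07 in Ogg1-/- and 0.941 to 1.00 in DKO, and it was not tested.

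**Figure D2:**
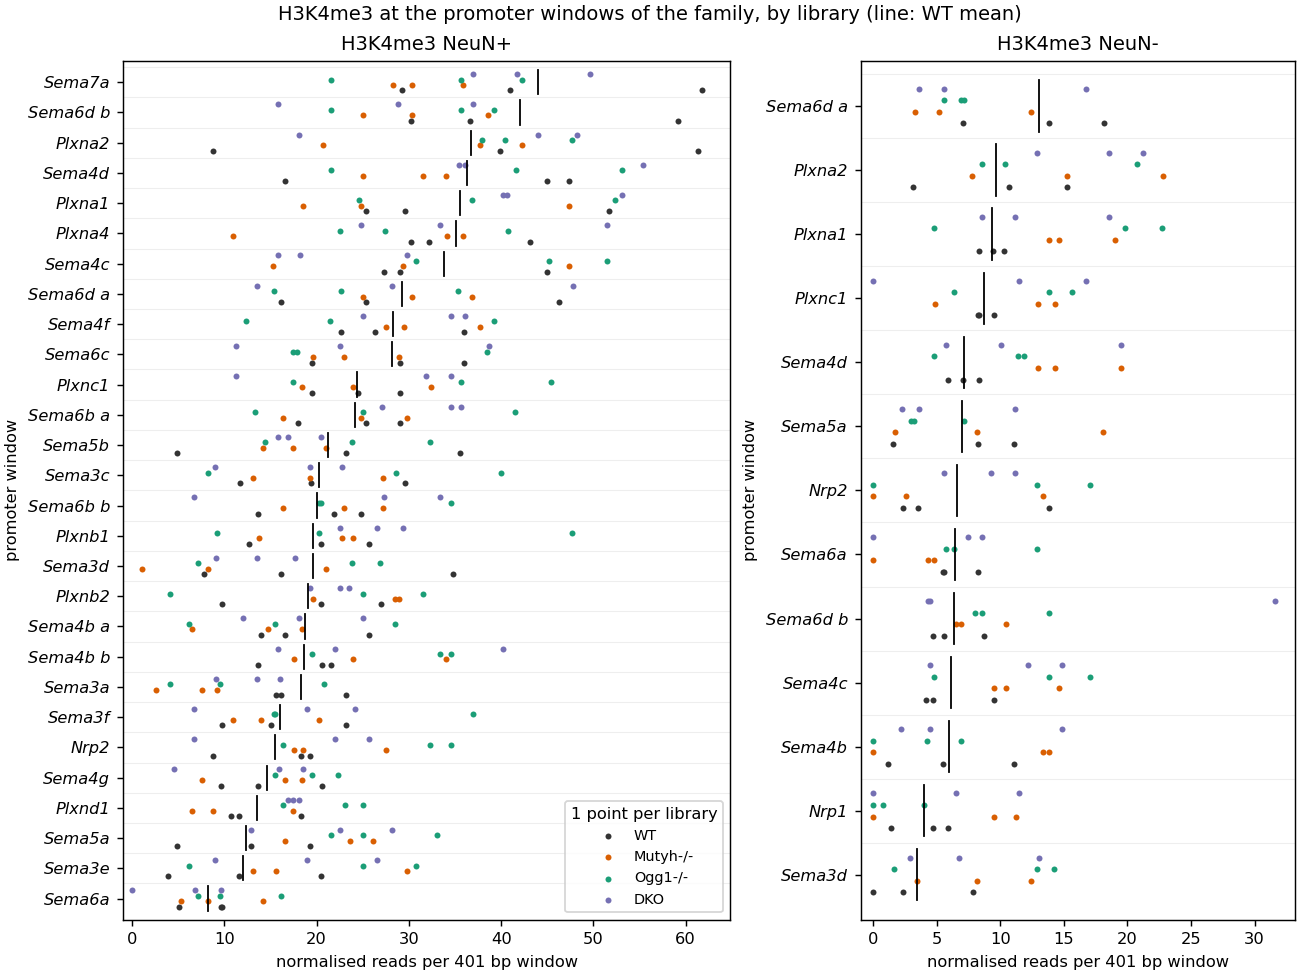
Normalised reads per 401 bp window (x axis) of H3K4me3 at each member promoter window (y axis), with 1 point per library coloured by genotype and a vertical line at the WT mean; a and b mark the windows of a gene with 2 of them. In NeuN+ the WT means run from 8.20 at Sema6a to 44.0 at Sema7a, in NeuN- from 3.41 at Sema3d to 13.0 at Sema6d, and the genotypes overlap at most windows.

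In NeuN- the upstream Sema6d window had the highest WT mean (13.0 ± 5.56, SD, n = 3), followed by Plxna2 (15.2, 3.15 and 10.6; 9.67 ± 6.09) and Plxna1 (8.30, 10.2 and 9.45; 9.33 ± 0.98). Plxna1 had the smallest spread of the 3, and none of them separated from the next beyond its spread. The lowest were Sema4b (11.1, 5.52 and 1.18), Nrp1 and Sema3d (0, 7.88 and 2.36). Their WT libraries overlapped one another. Against all promoter windows of the table, the WT median of the members was 0.75 to 1.0 times the overall median.

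H3K27me3 and Suz12 windows were annotated to few members, in tables that held fewer genes than H3K4me3 in NeuN+. H3K27me3 had 5 member windows of 4132 in NeuN+, on 3 of the 31 genes in a table that named 2210 genes in all, at Sema3f (3 windows), Sema5b and the window annotated to Plxnd1, and 0 of 1698 in NeuN-. Suz12 had 1 member window of 775 in NeuN+, where the table named 529 genes, and 1 of 312 in NeuN-, where it named 133. Both were annotated to Plxnd1. Whether these shares differ from those of other genes was not tested. Sema3f, which repels hippocampal axons and removes dendritic spines through Nrp2, had H3K27me3 windows to either side of its H3K4me3 window. Its windows began at chr9:107682927, chr9:107707532 and chr9:107722250, that is 26634 bp and 2029 bp to one side of the H3K4me3 promoter window (chr9:107709561-107709961) and 12689 bp to the other. WT signals were 1.10, 2.21 and 1.72 at the first, 7.67, 2.21 and 6.03 at the middle one, and 3.29, 8.86 and 0 at the last. These are few reads per library, and none of the 3 windows overlapped the H3K4me3 window. Sema5b, a class 5 semaphorin, had H3K27me3 at an alternative start (chr16:35659740-35660140; WT 0, 7.75 and 6.89), 118288 bp from its H3K4me3 window at chr16:35541452-35541852 (WT 23.2, 4.88 and 35.5). The consensus windows of the 2 marks annotated to these genes thus did not overlap. Windows of a fixed 401 bp do not give the extent of a mark, so whether the marks overlapped outside them was not tested.

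The only member-annotated place with more than 1 antibody was a window on chromosome 6 that does not lie in its annotated gene. It spanned chr6:116022034-116022472 over the 5 tables that held it, was annotated to Plxnd1 as the nearest start about 27 kb away (27029 to 27067 bp), and lay across the last coding exon of Tmcc1, the adjoining 3′ UTR and up to 71 bp of the intron before that exon (GENCODE vM21, chr6:116018611-116193486, minus strand). Windows in at least 5 of the 6 tables were 72 of 18505 places (0.389%), after overlapping windows had been merged. Over these 72 the median share of bases that the genome file marks as repeat or low-complexity sequence was 32.7%, and here it was 5.69%. Of the other member places, 24 were in 1 table and 11 in 2. Whether the reads in this window came from bound chromatin or from background that every antibody shares was not tested. In the whole family, 43 of 51 windows lay inside their annotated gene, and 5 of the remaining 8 were this window.

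**Figure D3:**
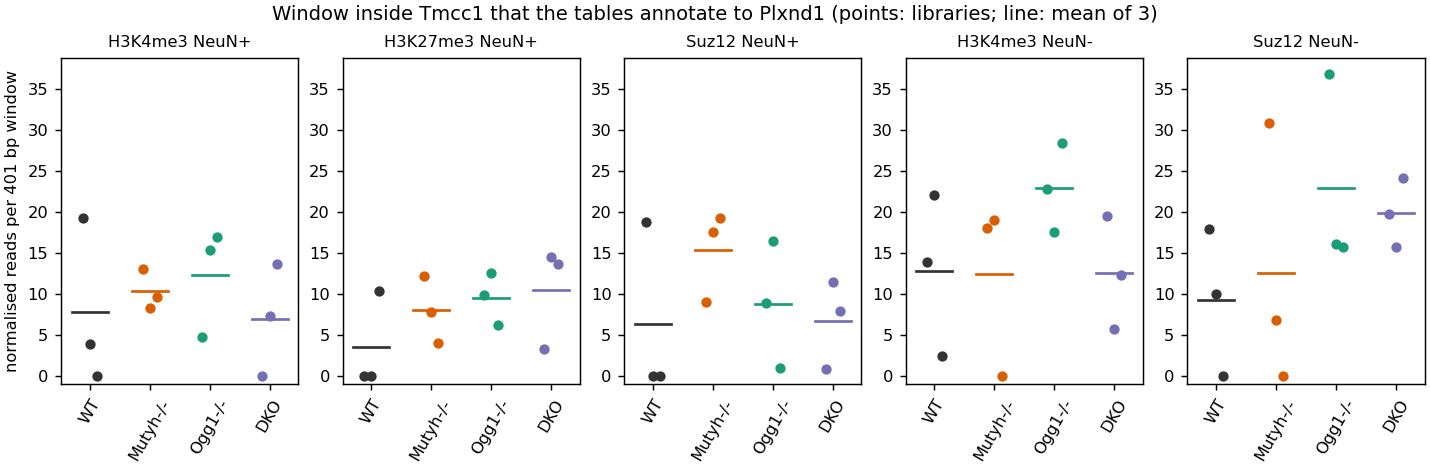
Normalised reads per 401 bp window (y axis) at the chromosome 6 window inside Tmcc1 that is annotated to Plxnd1, for the 5 tables that hold it; points are the 3 libraries of each genotype and lines their mean. In H3K27me3 of NeuN+ 2 WT libraries are at 0 and 1 is at 10.3, within the range of the knockout libraries.

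The comparison of each knockout with WT asked whether loss of the glycosylases changed the marks at these genes. It used limma on log2(normalised reads + 1), with p-values adjusted by the Benjamini-Hochberg method over all windows of a table. A window was called a differentially enriched region (DER) where the unadjusted p was under 0.05 and the absolute log2 fold change over 0.5. These are the study's thresholds. The study applied them to edgeR results and they are applied here to limma, so the calls are not the study's own. The 3 knockouts share the WT libraries, so their results are not independent of one another. In these bulk fractions, fewer nuclei with a mark and less of it per nucleus cannot be told apart. The replicates are described as independent in the study's methods, and p-values measure the spread between libraries made from pooled animals.

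No member window in any table passed the adjusted threshold. The smallest adjusted p of the family was 0.451 in limma with Benjamini-Hochberg adjustment, at the Tmcc1 window in Suz12 of NeuN- (Ogg1-/-). Over the 153 pairs of a member window and a knockout, 6 were DERs (3.92%), against 1457 of 68445 over all windows (2.13%). Of the 6, 4 lay at the Tmcc1 window, and 2 of the 138 pairs elsewhere were DERs. All 3 knockout libraries lay outside the WT range in 8 of 153 pairs (5.23%), against 6.27% of all pairs in the 5 tables that held member windows. The share of each contrast stands beside its count.

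In H3K4me3 of NeuN+, 1 of 30 member windows was a DER in Mutyh-/- (0.911% of all windows), 1 in Ogg1-/- (0.966%) and 0 in DKO (1.46%). The median log2 fold change of the members was -0.02 in Mutyh-/-, 0.15 in Ogg1-/- and 0.01 in DKO, beside -0.07, 0.08 and -0.02 over all windows. The median standard error of a member was 0.50, and the median 95% interval reached 1.02 to either side of a log2 fold change. All 3 knockout libraries lay outside the WT range at 1 member window in Mutyh-/- (5.77% of all windows), 1 in Ogg1-/- (3.68%) and 0 in DKO (5.02%).

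Sema3a, the class 3 semaphorin that repels axons through Nrp1, had the DER of Mutyh-/- (chr5:13399256-13399656). WT libraries 1, 2 and 3 had 23.2, 15.6 and 16.2 normalised reads and Mutyh-/- libraries 7.63, 9.19 and 2.63. All 3 Mutyh-/- libraries lay below all 3 WT libraries, with 6.48 ± 3.43 against 18.3 ± 4.21 (SD, n = 3). The log2 fold change was -1.48 (SE 0.66, unadjusted p = 0.0329 in limma, Benjamini-Hochberg adjusted p = 1.00). Ogg1-/- gave 9.52, 4.10 and 20.8, and DKO gave 13.5, 16.1 and 9.10. Both overlapped WT, with log2 fold changes of -0.85 and -0.49 that were no DERs. The Mutyh-/- call was lost without WT library 1 (-1.30), WT library 3 (-1.55) or Mutyh-/- library 3 (-1.02).

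Sema5a, a class 5 semaphorin that can attract or repel axons and restrains synapse formation in hippocampal granule cells, had the DER of Ogg1-/- (chr15:32245383-32245783). WT libraries had 19.3, 4.88 and 12.9 and Ogg1-/- libraries 24.99, 21.5 and 33.1. All 3 Ogg1-/- libraries lay above the highest WT library, with 26.5 ± 5.92 against 12.4 ± 7.22 (SD, n = 3). The log2 fold change was 1.20 (SE 0.50, unadjusted p = 0.0235 in limma, Benjamini-Hochberg adjusted p = 1.00). Mutyh-/- had 26.2, 16.5 and 23.7 (log2 fold change 0.94, SE 0.50) and DKO 22.6, 28.1 and 12.9 (0.84, SE 0.50). Both overlapped WT and neither was a DER in this fit. With TMM library factors both were DERs in limma (1.02 in Mutyh-/- and 0.86 in DKO). Mutyh-/- was also a DER in edgeR with TMM factors (0.98) and in DESeq2 (1.00), where DKO was not. The call in Ogg1-/- was lost without WT library 2 (log2 fold change 0.69) or Ogg1-/- library 3 (1.03). In NeuN- the overlapping Sema5a window had WT values of 11.1, 1.58 and 8.27 and Ogg1-/- values of 2.97, 3.19 and 7.10 (log2 fold change -0.37, SE 1.03), which overlapped.

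Sema4c, a class 4 semaphorin that signals through Plxnb2, shares its promoter window in NeuN+ (chr1:36557501-36557901) with the non-coding gene D430040D24Rik of GENCODE vM21. Other shared promoter windows were those of Plxna1 with Gm40415 in both fractions and of Plxnb1 with Gm7628 in NeuN+ (RefSeq), and in these windows too the reads cannot be assigned to one gene. WT had 45.0, 27.3 and 29.1 normalised reads and DKO 15.8, 29.8 and 18.2. Of the DKO libraries 2 lay below WT and 1 within its range. The log2 fold change was -0.66 (95% interval -1.52 to 0.19, unadjusted p = 0.125 in limma), no DER. Mutyh-/- had 15.3, 29.4 and 47.3 and Ogg1-/- 45.2, 30.8 and 51.5, both overlapping WT. Sema7a, the highest promoter, had 28.3, 30.3 and 35.9 in Mutyh-/-, 35.7, 21.5 and 42.3 in Ogg1-/- and 49.6, 37.0 and 41.7 in DKO. All 3 groups overlapped the WT libraries, and the DKO log2 fold change was 0.01 (95% interval -0.76 to 0.79).

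In H3K27me3 of NeuN+, 1 of 5 member windows was a DER in each knockout, and it was the Tmcc1 window each time (3.78% of all windows in Mutyh-/-, 3.82% in Ogg1-/- and 3.36% in DKO). WT libraries had 0, 0 and 10.3 normalised reads. Mutyh-/- had 12.2, 7.74 and 4.00, Ogg1-/- 9.91, 12.5 and 6.17, and DKO 3.28, 14.5 and 13.6. WT library 3 lay within the range of every knockout, so no group separated from WT. The log2 fold changes were 1.89 in Mutyh-/- (SE 0.87, unadjusted p = 0.0293), 2.18 in Ogg1-/- (SE 0.87, unadjusted p = 0.0118) and 2.14 in DKO (SE 0.87, unadjusted p = 0.0135), with limma adjusted p-values of 0.998, 0.983 and 0.998 by Benjamini-Hochberg. They rest on the 2 WT libraries without a read. Without WT library 1 the values were 1.30, 1.60 and 1.56, and without WT library 2 they were the same to 2 decimals, none of them a DER. The Mutyh-/- call was also lost without Mutyh-/- library 1 (1.56) or 2 (1.85), and the DKO call without DKO library 2 (1.82) or 3 (1.86). None of the 3 was a DER in edgeR with either set of factors or in DESeq2, and the Mutyh-/- call was also lost with a pseudocount of 4.

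At the other H3K27me3 windows no DER was found. All 3 Ogg1-/- libraries exceeded WT at the first Sema3f window (2.97, 4.18 and 5.14 against 1.10, 2.21 and 1.72; log2 fold change 0.93, SE 1.04), and all 3 DKO libraries exceeded WT at Sema5b (10.9, 9.69 and 8.02 against 0, 7.75 and 6.89; log2 fold change 1.35, SE 0.82). Such separation occurred at 1 of 5 windows in each of these contrasts (9.17% and 9.08% of all windows) and at 0 of 5 in Mutyh-/- (9.15%). Sema3f at the middle window had 7.65, 9.69 and 12.8 in DKO and 1.98, 0 and 8.22 in Ogg1-/-, both overlapping WT. The median log2 fold change of the 5 windows was 0.68, 0.93 and 1.26 in Mutyh-/-, Ogg1-/- and DKO, beside -0.21, -0.11 and -0.01 over all windows. With 5 windows on 3 genes, 3 of them on Sema3f, this is a description of few reads.

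In Suz12 of NeuN+ the Tmcc1 window was a DER in Mutyh-/- (5.16% of all windows). WT libraries had 18.8, 0 and 0 normalised reads and Mutyh-/- libraries 9.02, 17.6 and 19.3. WT library 1 lay within the Mutyh-/- range. The log2 fold change was 2.53 (SE 1.23, unadjusted p = 0.0401 in limma, Benjamini-Hochberg adjusted p = 0.916), beside a median of -0.63 over all windows of this contrast. It was no DER without WT library 2 or 3 (1.81 each), without Mutyh-/- library 2 (2.40) or without Mutyh-/- library 3 (2.34), nor with a pseudocount of 4, in edgeR or in DESeq2. Ogg1-/- had 8.92, 16.5 and 0.94, and DKO 0.85, 11.5 and 7.88, both within the WT range and no DERs (3.74% and 2.58% of all windows). In none of the 3 contrasts did the groups separate at this window (7.61%, 8.26% and 5.68% of all windows). In Suz12 of NeuN- the same window had 17.9, 9.95 and 0 in WT, 36.8, 16.1 and 15.7 in Ogg1-/- and 19.8, 15.7 and 24.2 in DKO. Mutyh-/- had 30.8, 6.85 and 0. These were no DERs (0 of 1 windows beside 3.85% of all in Mutyh-/-, 11.2% in Ogg1-/- and 6.73% in DKO), but without WT library 1 there were 2. The groups overlapped in all 3 contrasts (separation at 6.73%, 17.3% and 10.9% of all windows).

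In H3K4me3 of NeuN-, 0 of 14 member windows was a DER in any knockout, by limma or by any other tool run, and 0 had an unadjusted p under 0.05 in limma (background 2.94%, 3.36% and 2.29% of all windows in Mutyh-/-, Ogg1-/- and DKO). The median log2 fold change was 0.20, 0.31 and 0.29, beside 0.22, 0.25 and 0.05 over all windows. The median standard error of a member was 0.85, and the median 95% interval reached 1.70 to either side. In Mutyh-/- all 3 libraries lay above WT at 3 windows and below it at 1, that is 4 of 14 against 9.24% of all windows. In Ogg1-/- and DKO no member window separated (8.29% and 5.02%). Sema4d, the class 4 ligand of Plxnb1 that inhibits axon growth, had 8.30, 7.09 and 5.91 in WT and 14.3, 13.0 and 19.5 in Mutyh-/- (log2 fold change 1.02, SE 0.71). Sema4c had 4.15, 9.46 and 4.73 in WT and 10.5, 9.51 and 14.6 in Mutyh-/- (0.87, SE 0.77), where the nearest libraries of the groups were 9.46 and 9.51. Plxna1 had 8.30, 10.2 and 9.45 in WT and 19.0, 13.8 and 14.6 in Mutyh-/- (0.70, SE 0.64). Sema6a was the window that lay lower, with 5.53, 5.52 and 8.27 in WT and 4.76, 4.32 and 0 in Mutyh-/- (-1.23, SE 1.08). None of the 4 had an unadjusted p under 0.05.

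**Figure D4:**
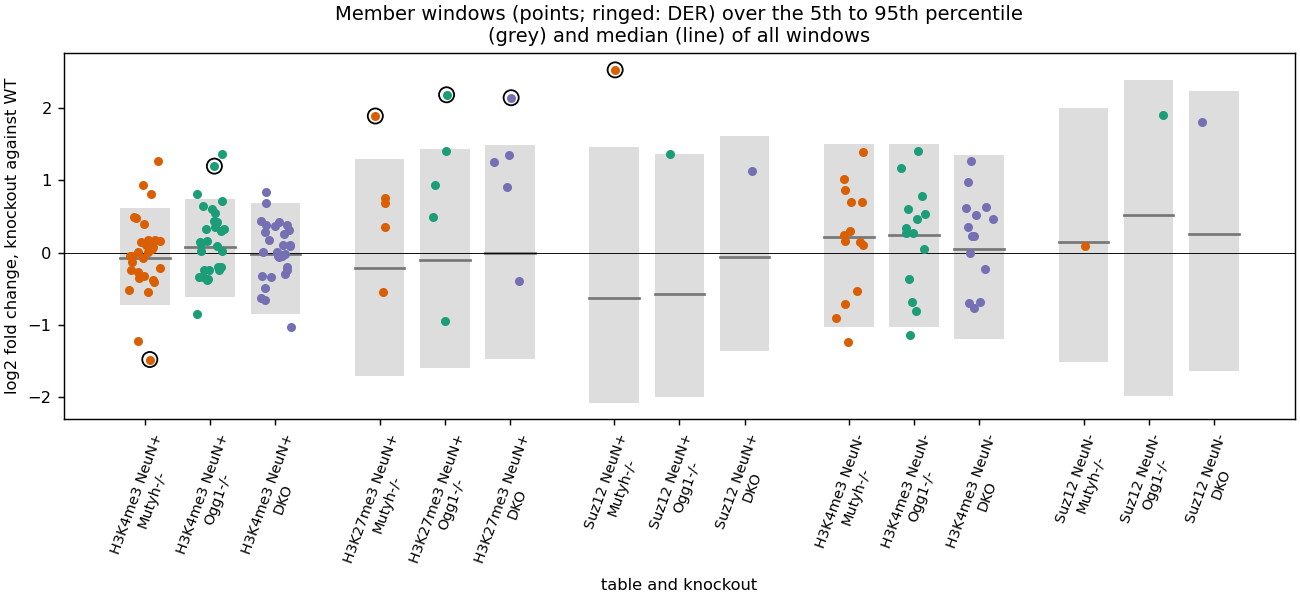
Log2 fold change against WT on the log2(normalised reads + 1) scale (y axis) of every member window (points) in each table and knockout (x axis), over the 5th to 95th percentile of all windows of the table (grey bars) and their median (grey line); rings mark DERs. The 6 ringed points are Sema3a (-1.48), Sema5a (1.20) and the Tmcc1 window (1.89, 2.18, 2.14 and 2.53).

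Whether the DKO effect differed from the sum of the single knockouts was asked with the contrast DKO minus Mutyh-/- minus Ogg1-/- plus WT. It was called at 0 of 51 member windows with the criteria of a DER (0.839% of all windows in H3K4me3 of NeuN+, 3.92% in H3K27me3 of NeuN+, 5.16% in Suz12 of NeuN+, 3.03% in H3K4me3 of NeuN- and 5.45% in Suz12 of NeuN-). By other tools the count was 4 with limma or edgeR on TMM factors and 2 with DESeq2. The shares of all windows under those settings are not given, so these counts cannot be set against other genes. The lowest unadjusted p in limma was that of Sema3a in NeuN+ (1.84, SE 0.94, unadjusted p = 0.0577, Benjamini-Hochberg adjusted p = 1.00). Next came Sema5a in NeuN+ (-1.30, SE 0.71, unadjusted p = 0.0777 in limma, Benjamini-Hochberg adjusted p = 1.00). The unadjusted p was under 0.05 for none of the 51. At Sema3a the DKO value lay closer to WT than the sum of the single knockouts did. At Sema5a it lay below that sum.

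The difference of a knockout effect between NeuN+ and NeuN- was tested at the 13 member windows that overlapped between the fractions, 12 of H3K4me3 and 1 of Suz12. Of 39 tests 1 met the criteria, Sema3d in Mutyh-/- (2.3% of all shared H3K4me3 windows in that contrast, 1.8% in Ogg1-/- and 1.8% in DKO; shared Suz12 windows 4.07%, 8.14% and 4.65%). Sema3d, a class 3 semaphorin, had 34.7, 7.81 and 16.2 normalised reads in WT and 1.09, 8.27 and 21.0 in Mutyh-/- of NeuN+. In NeuN- it had 0, 7.88 and 2.36 in WT and 12.4, 3.46 and 8.13 in Mutyh-/-. Within each fraction the groups overlapped. The effects were -1.22 (SE 0.72) and 1.40 (SE 1.04) on the log2 scale, and their difference was -2.62 (SE 1.29, unadjusted p = 0.04995 in limma, Benjamini-Hochberg adjusted p = 0.999). The test took the libraries of the fractions as independent. Both fractions were collected from a sort, but no source ties their replicate numbers, and deviations of libraries with the same number correlated over 0.1 in 0 of 12 pairs for H3K4me3. The criteria were no longer met with the replicate block (-2.62, SE 1.358), a pseudocount of 0.5 (-3.07), TMM factors in limma (-2.33), edgeR with the authors' factors (-1.93) or TMM (-1.50), or DESeq2 (-1.56).

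The signalling partners and the other guidance families give the surroundings of these genes. Of 30 partners such as L1cam, Fyn and the collapsin response mediator genes, 24 had an H3K4me3 peak in NeuN+ and 7 in NeuN-. Of 41 ephrins, Eph receptors, netrins, slits and their receptors, 37 had one in NeuN+ and 10 in NeuN-. In H3K4me3 of NeuN+ the 27 partner windows had 0 DERs higher and 1 lower in Mutyh-/- (0.911% of all windows were DERs), none in Ogg1-/- (0.966%), and 0 higher and 2 lower in DKO (1.46%). Fyn, a kinase downstream of Plxna2 and Sema3a, was the Mutyh-/- call (46.9 ± 8.46 in WT and 22.9 ± 5.53 in Mutyh-/-, SD, n = 3, log2 fold change -1.01). Dpysl5, a collapsin response mediator (log2 fold change -1.16), and Erbb2, a co-receptor of plexin B (-1.79), were the DKO calls. The other guidance families had 1 lower DER among 40 windows, Unc5a in Mutyh-/- (-1.35), and no higher one. In H3K27me3 of NeuN-, where the family itself had no window, 13 of the 41 guidance genes had one. Ephb4, a receptor for ephrin B2, was called there in Ogg1-/- and DKO (DERs were 2.0%, 4.18% and 2.3% of all windows in Mutyh-/-, Ogg1-/- and DKO), with 0 normalised reads in every WT library and means of 8.66 ± 6.96 and 8.29 ± 8.07 (SD, n = 3). In H3K4me3 of NeuN- a second Unc5a window, 1 of 10 of these families, was higher in DKO (log2 fold change 1.88; DERs were 2.29% of all windows). The remaining 5 partner calls, 2 in H3K27me3 of NeuN+, 2 in Suz12 of NeuN+ and 1 in H3K4me3 of NeuN-, were all at a single Chl1 window that was present in all 6 tables (chr6:103649009-103649409). DERs were 3.78% and 3.82% of all windows in the H3K27me3 contrasts (Mutyh-/- and Ogg1-/-), 5.16% and 3.74% in those of Suz12 and 3.36% in that of H3K4me3 in NeuN- (Ogg1-/-). Its H3K27me3 call in Mutyh-/- had a log2 fold change of -3.30 (limma, Benjamini-Hochberg adjusted p = 7.97e-05), although the mean of the normalised reads was higher in Mutyh-/- (117 ± 203 against 84.7 ± 65.5, SD, n = 3). The other H3K4me3 calls of these lists in NeuN+ had a Benjamini-Hochberg adjusted p of 1.00 in limma.

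CpG content was counted in the RefSeq promoters (250 bases before to 50 after each start, GRCm38.p6), which held 26 of the 31 members. Over all 32851 promoter entries the median was 7 CpG. Over the 26 members, taking the entry with the most CpG of each gene, it was 23 (2 to 42). This choice can only raise the member median, and no such choice was made for all promoters. The medians of 7 and 23 are therefore not like for like. Genes with an H3K4me3 promoter window in both fractions and in NeuN+ alone both had a median of 25 (9 and 12 genes), and the 4 matched genes without any peak had 4 to 18. Sema3a held 2 CpG and Sema4d 3, although both had an H3K4me3 promoter window. Their windows lay 2472 bp and 36332 bp from the nearest RefSeq start, so these entries do not describe the marked start. Within the H3K4me3 promoter windows themselves the member median was 36 CpG in NeuN+ (all promoter windows 35) and 34 in NeuN- (all 43).

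**Figure D5:**
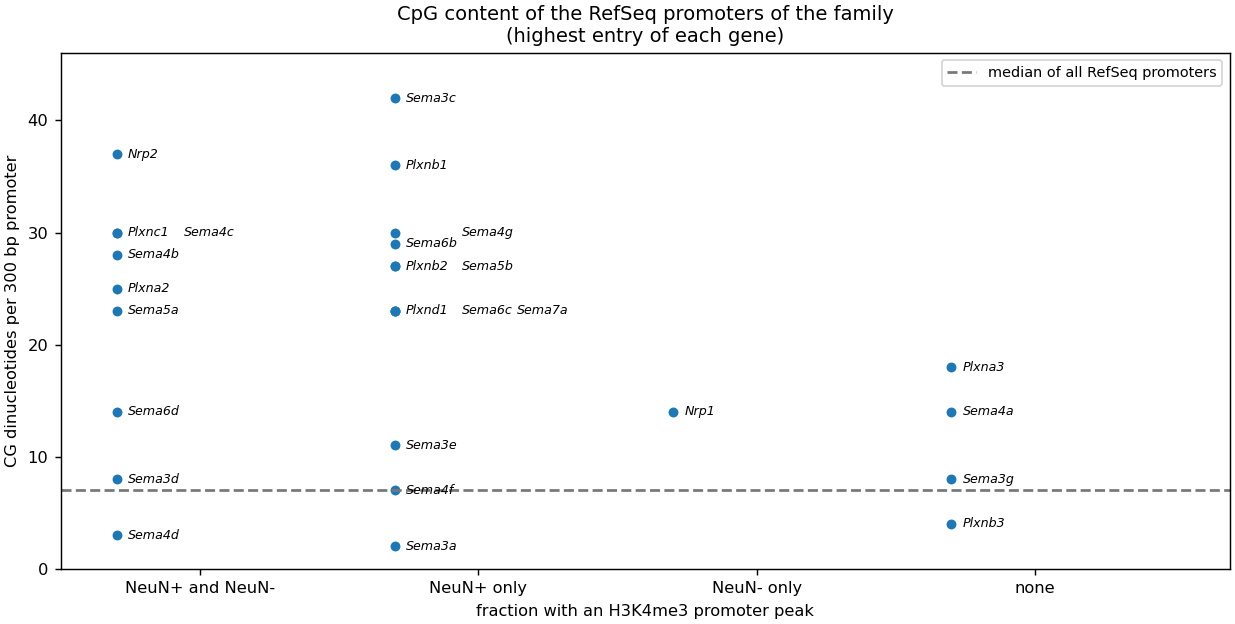
CG dinucleotides per 300 bp RefSeq promoter (y axis) for the 26 members with an entry. Members are grouped by the fraction in which the gene had an H3K4me3 promoter window (x axis). A point is the entry with the most CpG of a gene, and names at the same height share a point. The dashed line is the median over every entry of all promoters, so it is not like for like with the points. The 4 genes without a peak lie between 4 and 18, and the marked genes between 2 and 42. The lowest marked genes, Sema3a (2) and Sema4d (3), have entries that do not describe the marked start. The next lowest is Sema4f with 7.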

How the data were processed

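ChIP-seq libraries of H3K4me3, H3K27me3 and Suz12 from sorted hippocampal nuclei were analysed, 72 in 6 tables; 24 input libraries had no column and were not used here. Per the labels and methods, Bowtie2 (2.3.5.1) was used by the authors to map the reads, which were single-end, on GRCm38. They called peaks with epic2, took peaks of at least 2 of the 3 replicates as consensus, counted reads with DiffBind (3.10.1) and assigned genes with ChIPseeker (1.36); SICER and edgeR (3.42.4) are also named in the submitters' processing notes. The deposited signal is reads per window divided by a library factor, and whole reads were recovered for 100% of 273780 values (tolerance 0.0001).

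The design had foreseen edgeR on counts, with limma-trend (limma 3.58.1, R 4.3.3) for a normalised unit. As the deposited values were not raw counts, limma was used on log2(value + 1). Where reads were few, this scale gave larger changes than edgeR with the authors' factors in some places and smaller ones in others. At the Tmcc1 window in Suz12 of NeuN+ the Mutyh-/- log2 fold change was 2.53 in limma and 1.30 in edgeR. The Mutyh-/- member median in H3K4me3 of NeuN- was 0.20 in limma and 0.56 in edgeR. Every fit took in all 12 libraries that its table held. Interactions between fractions were fitted on windows that overlapped one-to-one. Alternatives were edgeR (4.0.16) and DESeq2 (1.42.0) on recovered reads, TMM factors, pseudocounts of 0.5 and 4, robust empirical Bayes, a filter on the lowest 25% of windows, a replicate block and leaving out each library. With 3 against 3 libraries an exact permutation test cannot reach 0.05, so none was run. The scripts were tested on simulated data. Intervals cover counting and replicate error of these samples only.

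Windows were named when they were DERs, when they were among the 3 highest or 3 lowest H3K4me3 promoter windows in WT, when their gene had peaks of several antibodies in a fraction, and for Sema4c; other windows with groups that did not overlap, Sema6d, Sema4b, the neuropilins and partner genes were named after their values were seen. The members and lists were chosen with earlier results of these data known. Sequences and CpG counts came from the GRCm38 genome and RefSeq. No promoter sequence is given for Plxna4, Sema3f, Plxna1, Sema6a and Sema3b.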

Additional observations from a re-analysis of the deposited data

Results flagged for a closer look

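Sema3d was the member window whose Mutyh-/- effect on H3K4me3 differed between NeuN+ and NeuN- by the test of the difference itself. The log2 effect in NeuN+ minus that in NeuN- was -2.62 (SE 1.29, unadjusted p = 0.04995 in limma, Benjamini-Hochberg adjusted p = 0.999). It was 1 of 39 tests. The criteria were not met with the replicate number as a block (SE 1.358), in edgeR or in DESeq2. Mutyh-/- library 1 of NeuN+ had 1.09 normalised reads and WT library 1 of NeuN- had 0, and the groups overlapped within each fraction. Leaving out 1 library gave counts of 0 to 2 such windows. The count was 0 without WT library 1 or 3, Mutyh-/- library 1 or 2, Ogg1-/- library 1 or 3, or any DKO library of NeuN+, and without WT library 1 or 3, Mutyh-/- library 1 or 3, Ogg1-/- library 1 or 3, or DKO library 2 of NeuN-. It was 2 without WT library 2 of either fraction in H3K4me3 or WT library 1 of Suz12 in NeuN+.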

How the results depend on the processing

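Fold changes of the 6 DERs kept their sign in every alternative. Shares of all windows called are given for the main fit alone. The member counts of the alternatives therefore cannot be set against other genes. In H3K4me3 of NeuN+ the 2 member DERs became 6 with TMM factors in limma, 6 in edgeR with TMM factors, 4 in DESeq2 and 1 without the lowest 25% of windows, which drops Sema3a. Sema3a and Sema5a were DERs in all other settings that kept every library. Sema4c in DKO was called with TMM factors in limma (-0.66), in edgeR with TMM factors (-0.67) and in DESeq2 (-0.67). Sema5a in Mutyh-/- was called in the same settings (1.02, 0.98 and 1.00), and in DKO with TMM factors in limma (0.86). The downstream Sema6d window in DKO was called with TMM factors in limma (-0.63) and edgeR (-0.57). Nrp2 in Ogg1-/- was called with TMM factors in edgeR (0.74). The 3 DERs in H3K27me3 of NeuN+ became 0 in edgeR with the authors' factors, 0 in edgeR with TMM factors and 0 in DESeq2. The 1 DER in Suz12 of NeuN+ became 0 with a pseudocount of 4 and 0 in edgeR with either factor and in DESeq2. On recovered reads with the authors' factors, edgeR thus kept 2 member calls, both in H3K4me3 of NeuN+. The cause was not tested.

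Leaving out 1 library gave 1 to 5 DERs in H3K4me3 of NeuN+ (5 without WT library 1, 4 without Ogg1-/- library 2 and 1 without Ogg1-/- library 3), 0 to 4 in H3K27me3 of NeuN+ (0 without WT library 1) and 0 to 2 in Suz12 of NeuN+. The last was 2 without WT library 1 and 0 without WT library 2 or 3 or Mutyh-/- library 2 or 3. Suz12 in NeuN- went from 0 to 2 without WT library 1 and was 0 otherwise. H3K4me3 in NeuN- stayed at 0 in every alternative.

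Non-additive calls (0) became 4 with TMM factors in limma, 4 in edgeR with TMM factors and 2 in DESeq2, with Sema3a and Sema5a in all 3. Leaving out 1 library gave 0 to 2, with 2 without WT library 1 or DKO library 3 of H3K4me3 NeuN+. It gave 1 without Mutyh-/- library 2, Ogg1-/- library 1 or Ogg1-/- library 3 of that table, Mutyh-/- library 3 of H3K4me3 NeuN-, WT library 3 of H3K27me3 NeuN+, or WT library 1 or Ogg1-/- library 3 of Suz12 NeuN+. The 1 difference between fractions became 0 with a pseudocount of 0.5, without the lowest 25% of windows and with the replicate block. It became 0 in edgeR with the authors' factors, 3 in edgeR with TMM factors and 4 in DESeq2. The count stayed at 1 with TMM factors in limma. Sema3d in Mutyh-/- was not called with TMM factors in limma or edgeR, nor in DESeq2, so those calls were other tests.

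The replicate number as a block left the member DERs at 2, 3, 1, 0 and 0 in H3K4me3 and H3K27me3 of NeuN+, Suz12 of NeuN+, H3K4me3 of NeuN- and Suz12 of NeuN-, and the non-additive calls at 0. The labels do not say that a number marks a shared batch, so the numbers were not taken as pairs. Only Mutyh-/- in Suz12 of NeuN+ had correlations over 0.1 between libraries of the same number in all 3 pairs (0.388, 0.186 and 0.119). In the same table they were 0.285, 0.226 and 0.071 in Ogg1-/- and 0.213, 0.177 and 0.040 in DKO. Whether the numbers share a batch in Suz12 of NeuN+ was not tested. Between the fractions, 0 of 12 pairs of H3K4me3 libraries and 1 of 12 of Suz12 libraries correlated over 0.1.

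TMM scaling moved the median log2 fold change of all windows by over 0.1 in some contrasts, most in Suz12 of NeuN+ (-0.63 to -0.08 in Mutyh-/-) and also in H3K4me3 of NeuN- (0.22 to 0.01 in Mutyh-/-). The member median in H3K4me3 of NeuN+ changed sign in Mutyh-/- (-0.02 to 0.05). Low depth limits the H3K27me3 and Suz12 windows most.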
